A study of Mus musculus with 4 samples.

Results

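Deaf1 ChIP-seq peaks that lay far from any protein-coding gene in mouse C2C12 cells are described here. A region was counted when peaks of both ChIP replicates overlapped by at least 1 bp on chromosomes 1 to 19 or X. Its position was the mean of the replicates' summits of highest fold. It was taken as intergenic when that position lay outside every protein-coding gene span, more than 5 kb from any coding span end and more than 1 kb from any noncoding gene end. Of 22880 regions shared by both replicates, 1617 met these conditions. That is 7.07%, with a 95% interval of 6.74% to 7.41%. The intervals given here are exact binomial ones and cover counting error only. Among the shared regions, gene positions alone decided which were intergenic, and no limit was set on fold. Being shared, however, needed a called peak in both replicates, and the position came from the summits of highest fold. Intergenic peaks lacking a partner were typically lower in both lists, as described near the end of these results. The folds of the regions kept are thus not free of selection by height.

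C2C12 is a mouse myoblast line, a single cell line, that fuses into muscle-like myotubes in culture. The series held Deaf1 ChIP (2 samples) and input chromatin (2 samples), all from C2C12 cells without a further treatment named in the labels. The labels call the cells myocytes, while the design text speaks of differentiated myoblasts, so the stage is not settled. Peak lists cannot check the identity of the cells. The inputs were not used here, and there was no second condition, so the comparisons below run between kinds of genomic position within each ChIP replicate. The labels do not say whether the replicates came from separate cultures, and their spread may be technical.

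Deaf1 is a transcription factor whose SAND domain binds DNA, with a preference for TTCG half-sites. Sites of transcription factors far from coding genes can be enhancers, which act on genes at a distance, or the starts of noncoding transcripts. MicroRNAs are cut from hairpins in longer primary transcripts, whose starts can lie many kilobases before the hairpin. A microRNA recognises its target messages mainly through its seed.

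MicroRNA genes stood beside several of the strongest intergenic regions, and their products are shown first for that reason. The sequences are the mature RefSeq microRNAs (GRCm38.p6), 5′ to 3′, with the seed, bases 2 to 8, in capitals. These loci were picked after their values were seen. The let-7 members of chromosomes 13 and 15 share the seed GAGGUAG, and the family is known for holding back growth and for keeping differentiated cells differentiated.
let-7a-5p: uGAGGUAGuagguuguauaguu
let-7f-5p: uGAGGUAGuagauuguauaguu
let-7d-5p: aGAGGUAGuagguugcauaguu
let-7b-5p: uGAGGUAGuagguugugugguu
let-7c-5p: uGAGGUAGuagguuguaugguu

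The miR-17-92 cluster of chromosome 14, known for promoting proliferation, encodes microRNAs of several seeds. Those of miR-17 and miR-20a are alike, and so are those of miR-19a and miR-19b.
miR-17-5p: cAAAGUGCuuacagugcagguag
miR-20a-5p: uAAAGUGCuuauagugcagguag
miR-18a-5p: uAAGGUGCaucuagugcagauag
miR-19a-3p: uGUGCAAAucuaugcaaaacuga
miR-19b-3p: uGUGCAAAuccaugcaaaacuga
miR-92a-3p: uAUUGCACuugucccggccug

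The remaining loci shown are miR-30a/c-2 on chromosome 1, miR-31 on chromosome 4, the miR-23a/27a/24-2 cluster with the neighbouring miR-181d on chromosome 8, and miR-155 on chromosome 16. Of these, miR-30a and miR-30c share a seed.
miR-30a-5p: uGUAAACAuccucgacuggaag
miR-30c-5p: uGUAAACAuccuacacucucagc
miR-31-5p: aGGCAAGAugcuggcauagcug
miR-23a-3p: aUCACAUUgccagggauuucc
miR-27a-3p: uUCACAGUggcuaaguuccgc
miR-24-3p: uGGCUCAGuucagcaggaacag
miR-181d-5p: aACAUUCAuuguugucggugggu
miR-155-5p: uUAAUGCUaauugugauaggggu

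Intergenic regions had lower fold enrichment than the other shared regions in both replicates. Fold enrichment is the authors' ratio of the ChIP signal at a peak's summit to the background that the peak caller estimated, and kinds of position were compared within 1 replicate at a time. In replicate 1 the median fold was 8.94 over the 1617 intergenic regions and 12.8 over the other 21263. In replicate 2 it was 6.45 over the intergenic regions and 9.98 over the others. The ranges overlapped widely, since the intergenic regions ran from 2.77 to 29.7 in replicate 1 and from 2.97 to 34.9 in replicate 2. Regions share libraries and neighbours and are not replicates, so no test was made over them.

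Every other kind of position had higher median folds. Within 1 kb of a coding gene end the median folds were 15.6 in replicate 1 and 13.9 in replicate 2, over 11272 regions. Inside coding genes, away from their ends, they were 10.5 and 6.83 over 8694 regions. At noncoding gene ends they were 10.2 and 7.59 over 687 regions, and between genes but within 5 kb of a coding gene they were 10.2 and 6.83 over 610 regions. The intergenic median was thus the lowest of these kinds in both replicates, but in replicate 2 it lay close to that of regions inside coding genes and of those within 5 kb of them.

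**Figure D1:**
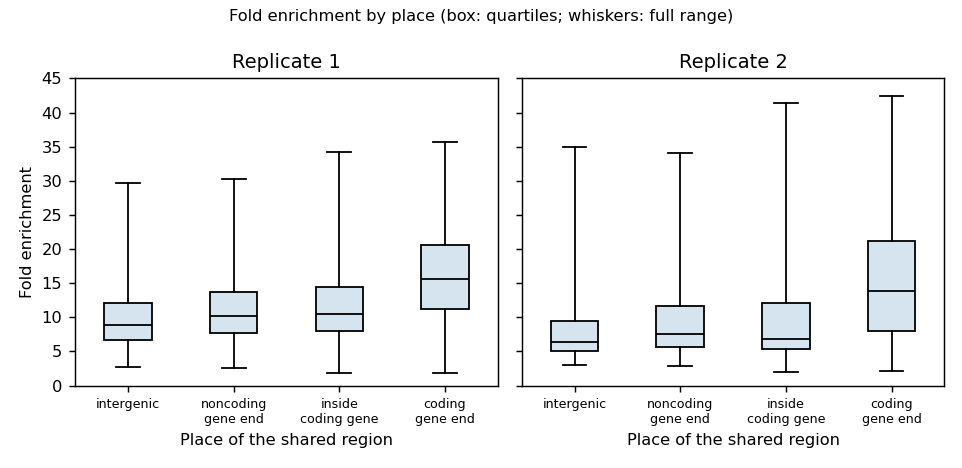
Fold enrichment (a ratio, vertical axis) of shared regions at 4 kinds of genomic position, in replicate 1 and replicate 2; lines in the boxes are medians, boxes span the quartiles and whiskers the full range. The intergenic regions have the lowest median, 8.94 in replicate 1 and 6.45 in replicate 2, and the regions at coding gene ends the highest, 15.6 and 13.9.

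High folds were rare among the intergenic regions. A fold of 20 or more in both replicates was found in 29 of 1617 intergenic regions (1.79%), against 13.7% of the other shared regions, and 12.9% of all shared regions passed it. When all shared regions were ranked by fold in both replicates and cut into 10 groups of 2288, intergenic regions made up 0.830% of the strongest group, 19 regions, and 14.6% of the weakest group, 334 regions. Their share was larger in each weaker group than in the one before it.

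The peaks were also shallower and narrower. The summit pileup, the number of fragments over the summit recovered from the deposited fold and p-value, had a median of 28 in the intergenic regions and 43 in the other shared regions of replicate 1. In replicate 2 the medians were 16 in the intergenic regions and 28 in the others. The median width was 332 bp in the intergenic regions, with a range of 163 to 2308 bp, and 563 bp in the others. The widest intergenic regions were nearest to Ppara (2308 bp), Bcor (2246 bp, folds 18.2 and 20.5) and Gpc5 (2095 bp).

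The median gap between replicate summits was 23 bp in the intergenic regions and 24 bp in the other shared regions. The replicate summits lay within 100 bp of each other in 1473 intergenic regions (91.1%, interval 89.6% to 92.4%), against 82.6% of the other shared regions. Narrow overlapping peaks leave less room for a wide gap, and the intergenic regions were narrower. The part of width in this difference was not tested. A single peak in each replicate made up 97.4% of the intergenic regions and 91.7% of the others. The folds of the 2 replicates had a Spearman correlation of 0.716 over the 1617 intergenic regions, the lowest of the kinds of position, against 0.840 over the other shared regions. These are descriptions, since all regions come from the same libraries.

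Replicate 1 gave the higher fold at 1237 intergenic regions (76.5%). It did so at 78.7% of regions between genes within 5 kb of a coding gene, 78.0% of those inside coding genes and 61.7% of those at coding gene ends. In 32 intergenic regions its fold was more than 2.5 times that of replicate 2, and the reverse was found in none. The largest such ratios were nearest to Pax7, a satellite cell factor, with folds of 15.6 and 4.17, to Mb, the myoglobin gene, with 14.05 and 4.001, and to the proton pump subunit gene Atp6v1b2, with 10.2 and 3.03. At these 3 regions the level in the second library was thus low, although the region passed as shared. Ratios above 2.5 were not counted in the other shared regions, so the 32 cannot be called particular to intergenic ones. Replicate 1 was higher at 69.2% of those other regions.

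**Figure D2:**
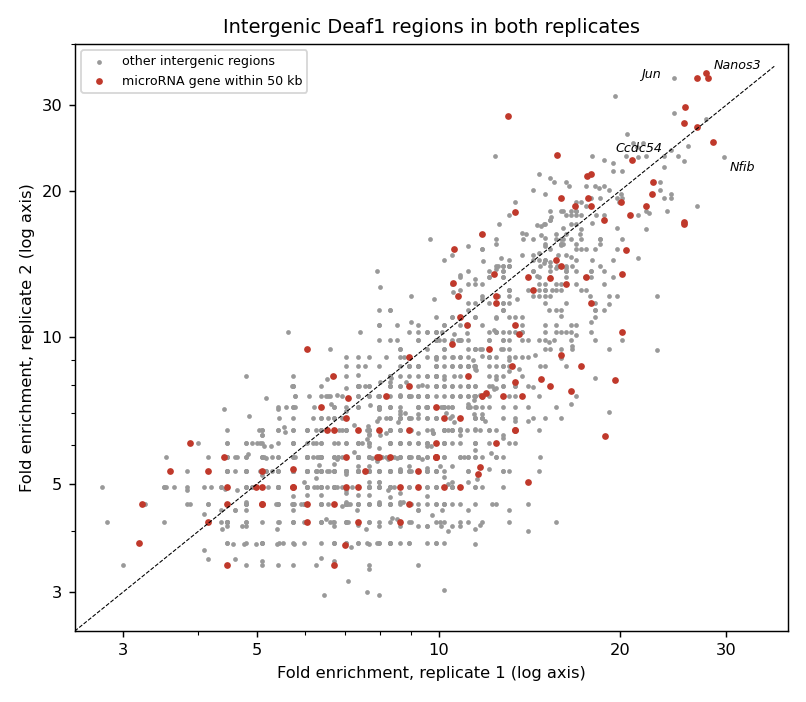
Fold enrichment in replicate 2 against replicate 1 for the 1617 intergenic regions (both axes log), with regions that have a microRNA gene within 50 kb in red and 4 of the 12 strongest regions named by their nearest coding gene. Most points lie below the dashed line of equal fold, as replicate 1 was higher in 76.5% of regions.

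The strongest intergenic regions were few and reached the level of strong peaks at genes. The 12 with the best summed rank by fold had folds of 24.5 to 29.7 in replicate 1 and 23.5 to 34.9 in replicate 2, and they ranked between 52 and 1042 among all 22880 shared regions. Of these 12, 7 had a microRNA gene within 50 kb, against 7.85% of all 1617 intergenic regions. The local background, the level the peak caller took as unbound, was raised in 1 or both replicates at 8 of the 12. It was raised in neither replicate at 1118 of all 1617 intergenic regions. The part of the background in the rank of the 12 was not tested. The first lay on chromosome 8 (84183318 to 84184241, 924 bp wide), 7.31 kb from Nanos3, a germ cell gene, and 4900 bp from Mir181c. Its folds were 27.8 in replicate 1 and 34.9 in replicate 2.

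The next had folds of 27.999 and 34.1 and lay on chromosome 4 inside the lncRNA gene Gm49890, 58.2 kb from the interferon gene Ifne and 27.7 kb from Mir31. A region 110.1 kb from Ogfrl1 on chromosome 1 had folds of 26.8 and 34.1 and lay 15.9 kb from Mir30a. The region 6.50 kb from Elovl5, a fatty acid elongase gene, had folds of 27.8 and 28.1 and no microRNA gene within 50 kb. In each of these 4 regions replicate 2 gave the higher fold, unlike in most intergenic regions.

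On chromosome 15 the widest intergenic region (85669849 to 85672156) lay 63.9 kb from Ppara, a nuclear receptor of fatty acid metabolism, and 35.6 kb from the let-7c-2 and let-7b hairpins. Its folds were 25.6 and 29.7, and the replicate summits lay 632 bp apart. A region inside the lncRNA gene Junos, 109 kb from the AP-1 gene Jun, had folds of 24.5 and 34.1. On chromosome 14 a region (115040341 to 115042435) lay 51.0 kb from Gpc5, a cell surface proteoglycan gene, and 2455 bp from the miR-17 hairpin. Its folds were 26.8 and 27.01 and its summits 896 bp apart, so a single position does not stand for the whole of this wide region.

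The other five were of like height. The region nearest to the phosphatase gene Ptpdc1 had folds of 25.5 and 27.5 and lay 7915 bp from Mirlet7a-1. One inside Lncpint, a lncRNA gene 182 kb from Mkln1, had folds of 24.6 and 28.8. A second region of the chromosome 8 locus, 10.1 kb from Zswim4 and 7711 bp from Mir23a, had folds of 28.5 and 25.2. The region 6.50 kb from Nfib, a nuclear factor I gene, lay inside the lncRNA gene Gm11266 and had folds of 29.7 and 23.5, and the region 60.8 kb from Ccdc54 lay inside the lncRNA gene G730013B05Rik and had folds of 25.9 and 24.7. Of the 12 regions, 5 thus lay inside a lncRNA gene. Of all 1617 intergenic regions, 346 lay inside a lncRNA gene, and 22.8% lay inside a noncoding gene of any kind.

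Counted by gene, microRNA genes had intergenic Deaf1 regions close by more often than other noncoding genes did. Of 306 microRNA genes more than 5 kb from any coding gene, 63 had an intergenic region within 20 kb, which is 20.6% (interval 16.2% to 25.6%). Among lncRNA genes placed likewise it was 584 of 6455, or 9.05% (interval 8.36% to 9.77%). It was 2.74% of pseudogenes, 1.92% of snoRNA genes and 2.13% of snRNA genes. MicroRNA genes lie in clusters that share regions, and when those within 10 kb were joined, 25 of 195 loci had a region within 20 kb (12.8%, interval 8.47% to 18.3%). Counted by locus, the interval for microRNAs thus overlaps that of lncRNA genes. The lncRNA genes were counted singly and not joined, so the units of these intervals differ. The rule left out positions within 1 kb of any noncoding gene end, so regions at the ends of lncRNA genes were not counted. There were 687 shared regions at noncoding gene ends. The part of this rule in the difference between gene kinds was not tested.

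Regions beside microRNA genes had higher median folds. The comparisons by microRNA gene, here and above, were made after the strongest regions had been seen. The 127 intergenic regions with a microRNA gene within 50 kb had median folds of 11.2 in replicate 1 and 7.59 in replicate 2, against 8.94 and 6.45 for the 1490 with none. A fold of 20 or more in both replicates was found in 9 of the 127 (7.09%) and in 20 of the 1490 (1.34%). Strand was known for the nearest hairpins of 113 such regions, and 70 of them lay upstream of the hairpin and 43 downstream. All 9 regions with a fold of 20 or more in both replicates lay upstream, beside 8 hairpins. These 9 include the 7 of the 12 strongest regions that drew attention to microRNA genes, so they are no separate support.

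**Figure D3:**
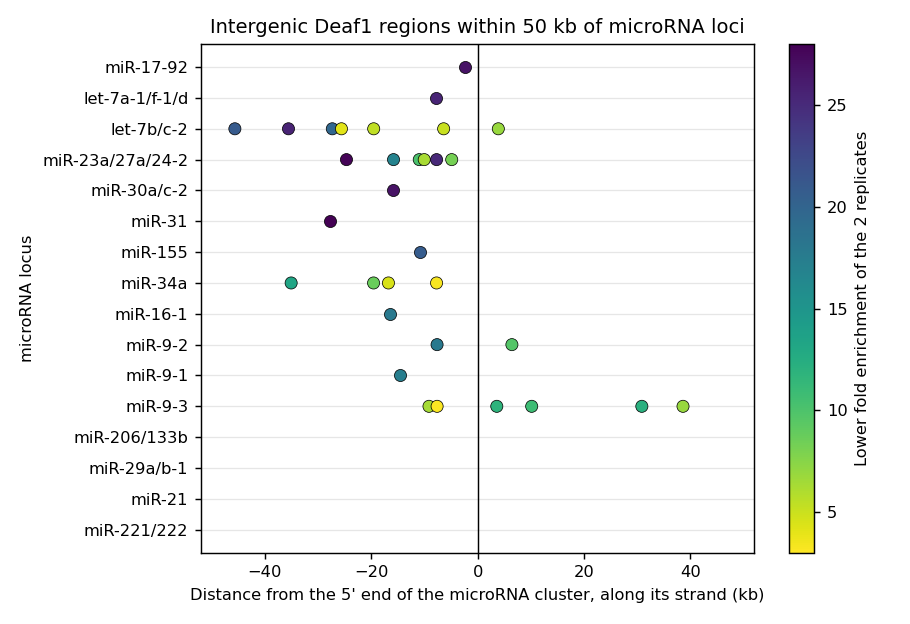
Intergenic Deaf1 regions within 50 kb of chosen microRNA loci, by distance in kb from the 5′ end of the locus along its strand (upstream negative); each point is a region, and its colour gives the lower of its replicate folds. The strong regions of miR-17-92, let-7a-1/f-1/d, let-7b/c-2, miR-23a/27a/24-2, miR-30a/c-2, miR-31 and miR-155 lie upstream, and the bottom 4 loci have no region.

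At miR-17-92 the upstream region described above held 83 fragments at its summit in replicate 1 and 74 in replicate 2. No other intergenic region lay within 50 kb of that cluster. The let-7a-1/f-1/d cluster likewise had 1 region, 7.92 kb upstream (13:48545484 to 48546838). The let-7b/c-2 locus had 7, with 6 upstream and 1 downstream. Its 3 strongest lay 45.6, 35.6 and 27.3 kb upstream, with folds of 20.9 and 23.1, 25.6 and 29.7, and 22.6 and 19.7 in replicates 1 and 2. The other 4, nearer to the hairpins, had folds of at most 14.05 in replicate 1 and 6.83 in replicate 2.

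The miR-23a/27a/24-2 cluster had 6 regions upstream, at 4.87 to 24.7 kb, and all 6 also lay upstream of miR-181d, which is transcribed the other way. Their folds ran from 13.6 to 28.5 in replicate 1 and from 6.26 to 34.9 in replicate 2. The local background was raised above its lowest value at 5 of these 6 regions in both replicates. Whether that took part in their folds was not tested.

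A region 10.7 kb upstream of miR-155, a microRNA of immune cells, had folds of 22.7 and 20.9 (16:84702822 to 84703585). The 4 regions upstream of miR-34a, a p53 target, had folds of 17.6 and 13.3, 17.2 and 8.72, 5.11 and 4.55, and 3.23 and 4.55. All 3 miR-9 genes, whose microRNA is best known from neurons, had intergenic regions within 50 kb, with folds of up to 17.9 and 21.6 at miR-9-2 and of 18.8 and 17.4 at miR-9-1. No intergenic region lay within 50 kb of the muscle microRNA miR-206, nor of miR-29a, miR-21 or miR-221. A shared region nearer to a coding gene would not be counted here.

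Few intergenic regions touched an annotated transcript start. In the RefSeq table of start windows, from 250 bp before to 50 bp after a start, 9 intergenic regions overlapped a window and 5 had their position inside it. The rule had already removed positions within 1 kb of a noncoding gene's ends, so these are starts inside a longer gene span or starts beside the position. The window of Mir9-3hg, the host gene of miR-9-3, is printed because the position lay at -1 bp from the start, with folds of 10.9 and 10.999. This annotated start lies downstream of the miR-9-3 hairpin. That of the lncRNA gene Gm33616 is printed as the other of the 5 windows holding a position where both folds were above 8, the position being at -159 bp from the start, with folds of 11.2 and 8.72. Both are given from mm10 (RefSeq GRCm38.p6) in the direction of the gene, with TTCG, or CGAA for the other strand, in capitals.
Mir9-3hg, plus strand, chr7:79515185-79515484: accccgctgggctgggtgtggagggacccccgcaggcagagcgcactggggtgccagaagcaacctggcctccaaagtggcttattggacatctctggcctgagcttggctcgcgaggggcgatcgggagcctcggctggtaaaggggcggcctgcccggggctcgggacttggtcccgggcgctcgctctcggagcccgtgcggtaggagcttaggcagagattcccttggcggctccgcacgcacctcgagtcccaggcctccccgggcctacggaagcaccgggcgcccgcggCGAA
Gm33616, minus strand, chr9:106418301-106418600: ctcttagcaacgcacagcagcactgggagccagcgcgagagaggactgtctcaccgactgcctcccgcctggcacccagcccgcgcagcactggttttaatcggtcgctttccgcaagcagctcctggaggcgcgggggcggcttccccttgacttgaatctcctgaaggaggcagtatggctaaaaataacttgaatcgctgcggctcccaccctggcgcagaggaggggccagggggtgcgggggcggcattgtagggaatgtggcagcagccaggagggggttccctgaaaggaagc

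The Mir9-3hg window held 28 CpG dinucleotides and 70.7% G and C, and the Gm33616 window 18 and 63.3%. The windows of 9430078K24Rik, Gm35551 and Gm32316 that also held a position had fewer CpG dinucleotides, 9, 5 and 7. Their G and C content was 55.3%, 60% and 62.3%. Over all 32851 start windows of the table the medians were 7 CpG dinucleotides and 52.7%. TTCG or CGAA stood in 2 of the 5 windows that held a position and in 44.7% of all start windows. A match of this short motif is a description and does not mark a binding site. The sequence of the other intergenic regions was not analysed here.

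Most intergenic regions lay outside any annotated gene. Inside a noncoding gene span were 368 (22.8%, interval 20.7% to 24.9%), of which 346 were in lncRNA genes. Their median folds, 9.26 and 6.45, lay close to the 8.94 and 6.45 of the 1249 regions outside every gene.

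The distance to the nearest coding gene end had a median of 25.9 kb, with quartiles of 11.8 and 63.9 kb. Past 20 kb lay 945 regions, past 50 kb 519, past 100 kb 229, past 200 kb 96, past 500 kb 12 and past 1000 kb 1. Fold hardly varied with distance. Regions at 5 to 10 kb (332 regions) had median folds of 8.94 and 6.45, those at 50 to 100 kb (290 regions) 8.69 and 6.45, and those at 200 to 500 kb (84 regions) 7.98 and 6.37. The Spearman correlation of distance with fold was -0.05 in replicate 1 and -0.02 in replicate 2. None of the 96 regions past 200 kb had a fold of 20 or more in both replicates. Over all 1617 intergenic regions 29 did (1.79%), and at that share few of 96 would.

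**Figure D4:**
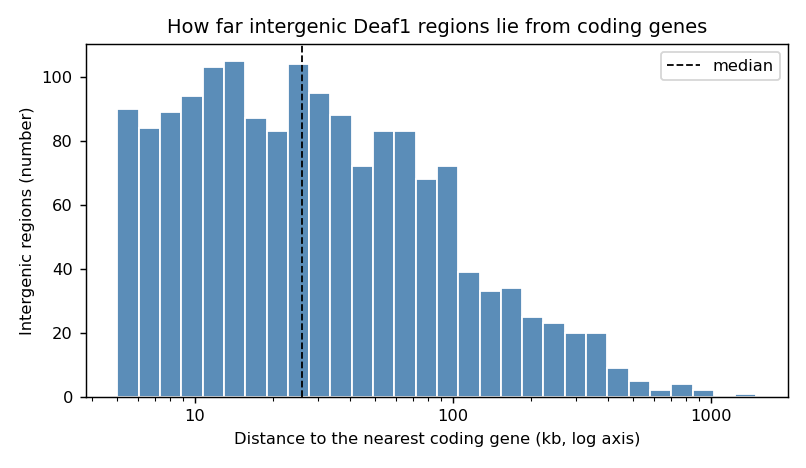
Number of intergenic regions by distance to the nearest coding gene (kb, log axis); the dashed line is the median, 25.9 kb. The bars thin out past 100 kb, where 229 of the 1617 regions lie.

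The 5 regions farthest from coding genes had modest folds. The farthest lay 1393 kb from Tenm3, a teneurin gene of cell adhesion, with folds of 6.70 and 3.79. Those 957 kb from Gm597 and 939 kb from Apob had folds of 6.39 and 5.69, and of 8.30 and 7.21. The region 832 kb from Adam6a lay within the immunoglobulin heavy chain locus (7.02 and 5.69), and that 826 kb from Fstl5 had folds of 9.90 and 7.96.

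The distance limit cut through a continuous range. The intergenic regions closest to it were 5.006 kb from Bri3bp (folds 5.29 and 5.997), 5.023 kb from Sp7 (3.88 and 6.07) and 5.030 kb from Wfdc1 (7.98 and 7.21). Left out just short of it were regions 4.982 kb from Secisbp2l (14.7 and 7.21), 4.982 kb from B4galt6 (8.30 and 4.93) and 4.974 kb from Nkx2-5 (10.4 and 6.07).

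The 1617 intergenic regions had 1141 different coding genes as their nearest, which is 5.27% of the 21631 coding genes. Of these genes, 860 were nearest to a single region and 26 to 5 or more. The nearest gene is a matter of position and need not be the gene that a region acts on. The most regions stood by Mn1 (11) and by Cebpb (10), both named after these counts were seen.

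Gene lists from textbook knowledge were set against this background of 5.27%. Genes with much intergenic sequence around them have more room for such regions, so the room, the sequence nearest to a gene that could hold an intergenic region, is given as well. Over all coding genes it had a median of 9.4 kb a gene and held 1.17 regions per Mb. The genes named from a list are those with the highest regions by the lower fold of the 2 replicates.

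Of 40 myogenic and fusion genes, 17 (42.5%) were nearest to an intergenic region, and 32 regions stood by them with median folds of 11.5 and 9.10. They held 4.23 regions per Mb of room, and the median room was 60.9 kb. Id3, which blocks myogenic factors, had a region 8.43 kb away with folds of 20.1 and 19.3. Mef2c and Mef2d, muscle transcription factors, had their highest regions at 64.1 and 28.9 kb, with folds of 17.9 and 21.6 for Mef2c and 18.8 and 17.4 for Mef2d, which are also the highest regions beside miR-9-2 and miR-9-1.

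Myod1, the master regulator of the muscle lineage, had 2 intergenic regions, looked up after the list's values were seen. They lay 27.5 kb away (7:46348750 to 46349215, folds 16.3 and 14.8) and 12.04 kb away (7:46364310 to 46364552, folds 9.26 and 5.31). The more distant was the higher in both replicates. Myog, Myf5 and Myf6, the related factors, were nearest to no intergenic region.

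Of 40 homeobox and developmental regulators, 21 (52.5%) were nearest to an intergenic region, with 35 regions. Their median room was 190.8 kb, the largest of the 8 lists, and they held 2.79 regions per Mb of it. By the lower fold the highest lay 34.6 kb from Foxd1 (folds 17.6 and 18.6) and 99.1 kb from Irx5 (16.9 and 17.1). Next came those 49.7 kb from Hoxc4 (13.8 and 15.9) and 7.76 kb from Meis1 (12.8 and 13.7). All 4 genes encode transcription factors of the embryo.

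Of 32 AP-1 and immediate early genes, 10 (31.3%) were nearest, with 21 regions and 3.80 regions per Mb of room. After the Jun region came those of Klf4 (16.0 and 15.5), Nr4a1 (14.6 and 17.0) and Btg2 (16.6 and 14.03), genes that cells switch on quickly after a stimulus. Of 40 matrix and mesenchymal genes 6 (15%) were nearest, with 16 regions and 3.92 per Mb. Cebpb, which encodes a factor of fat cell differentiation, held 10 of these 16, the highest 75.1 kb away with folds of 15.4 and 12.5. Pparg, the fat cell master regulator, had a region 9.39 kb away with folds of 14.7 and 6.45. Prrx2 had a region at 8.23 kb with 9.90 and 8.34, and the collagen gene Col12a1 a region at 256 kb with 12.5 and 5.69.

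Of 40 genes of mTORC1, insulin and FOXO signalling, 6 (15%) were nearest to 11 regions, with 1.89 per Mb. Foxo1, a factor that drives atrophy genes, had its highest region 71.9 kb away, with folds of 16.1 and 15.6. The highest region of the Rag GTPase gene Rragc lay 242 kb away (12.1 and 13.7). That of the mTOR inhibitor gene Deptor lay 17.1 kb away (6.70 and 6.83). Of 41 autophagy and lysosome genes, 2 (4.88%) were nearest, a share close to the 5.27% of all coding genes, and the room, with a median of 5.8 kb, held 0.557 regions per Mb. Atg4c, a protease gene that processes ATG8 proteins, had its region 148 kb away (12.5 and 9.10). Wipi1, a phagophore membrane gene, had its region 15.7 kb away (6.70 and 4.55).

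Of 42 sarcomere and excitation-contraction genes, 2 (4.76%) were nearest to 3 regions. Their median room was 4.5 kb, and 3.34 regions per Mb stood in it. Myl3, a myosin light chain gene, had a region 11.7 kb away with folds of 20.97 and 25.03, and Mb the uneven one given above. Of 40 markers of other cell types, 4 (10%) were nearest to a region each, with 1.16 per Mb against 1.17 over all coding genes. The neuronal gene Snap25 had its region 34.6 kb away (folds 18.8 and 20.5) and the epithelial keratin gene Krt18 at 20.2 kb (17.8 and 12.1). The neuronal tubulin gene Tubb3 had its region at 6.50 kb (6.39 and 5.31) and the endothelial cadherin gene Cdh5 at 72.8 kb (5.39 and 4.05). Over the 8 lists 68 of 315 genes (21.6%) were nearest to 124 regions. The lists were written with earlier results of these data known, and no test was made over them.

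Some intergenic regions stood in groups and most stood alone. Within 10 kb of another lay 407 (25.2%, interval 23.1% to 27.4%), in 168 clusters, and 1210 stood alone. Regions in clusters had median folds of 10.2 and 6.83, and those alone 8.62 and 6.45. In 40 clusters there were 3 regions or more, and the largest held 8. The 5 largest by number are described, and comparisons among them do not extend to the smaller ones.

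That of 8 regions spanned 43.6 kb on chromosome 15 (79169418 to 79213353) between Sox10, a neural crest factor, and Pick1, with median folds of 9.26 and 5.50. A cluster of 7 beside Cbx8, a Polycomb gene, on chromosome 11 (119046469 to 119059008) had the shortest span of the 5, at 11.9 kb, with median folds of 16.0 and 13.3 and no raised background. Another 7 lay between Dlx4 and Tac4 (11:95202018 to 95232308), with median folds of 9.53 and 8.09. Of these 5, the highest medians, 19.2 and 14.4, were those of the 6 regions beside miR-23a described above, between Nanos3 and Zswim4 (8:84183318 to 84204341). On chromosome 2, 6 of the 10 Cebpb regions made up a cluster of 27.4 kb (167747449 to 167775203), 57.2 to 84.6 kb from the gene, with median folds of 7.98 and 5.31.

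Intergenic regions were unevenly spread over chromosomes. Overall there were 1.17 per Mb of sequence that could hold one. Chromosome 15 had 2.29 per Mb (130 regions) and chromosome 11 had 2.24, while chromosome 3 had 0.570 and the X chromosome 0.405. Chromosome 2 held the most in number, 145. As a share of the shared regions of the chromosome the order was another: intergenic regions made up 13.6% on chromosome 13, 9.19% on chromosome 15, 8.17% on X and 6.002% on chromosome 11, against 7.07% overall.

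**Figure D5:**
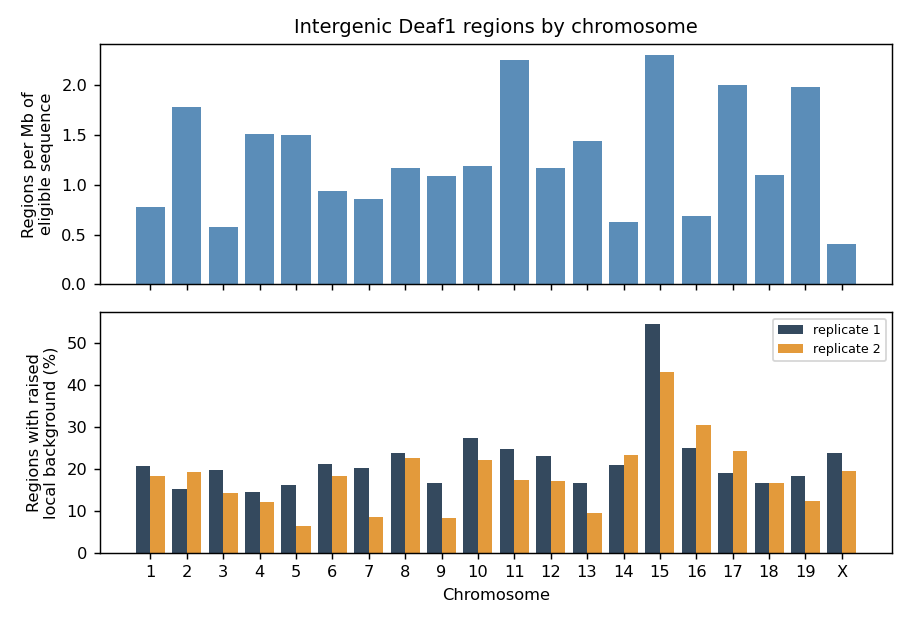
Intergenic Deaf1 regions per Mb of sequence that could hold one, and the percent of them with a raised local background in each replicate, by chromosome. Chromosome 15 has the most per Mb, 2.29, and the highest percent with a raised background, 54.6% in replicate 1 and 43.1% in replicate 2.

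The local background is the number of fragments the caller took as the level without binding, and it was raised where it lay more than 0.003 fragments above the lowest value of the list. It was raised at 364 intergenic regions (22.5%, interval 20.5% to 24.6%) in replicate 1 and at 299 (18.5%, interval 16.6% to 20.5%) in replicate 2. Over the other shared regions it was 30.7% and 25.7%, with 40.7% and 35.2% at coding gene ends and 18.8% and 14.8% inside coding genes. On chromosome 15 it was raised at 54.6% and 43.1% of the intergenic regions, against 19.7% and 16.3% on all other chromosomes. The density of chromosome 15 thus goes with a higher background there, whose part in it was not tested.

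The region nearest to Tuba1c, on chromosome 15, had the highest local background in both replicates, 10.02 and 8.66 fragments, and folds of only 4.63 and 4.86. In replicate 1 those nearest to Ccdc9 and Hlf followed, and in replicate 2 those nearest to Adgre5 and Zswim4, the last with 5.96 fragments. Deaf1 itself was nearest to no intergenic region, and the one closest to it lay 1222 kb away beside Mrpl23, with folds of 8.30 and 5.69. A q-value above 0.05 was found at no intergenic region in replicate 1 and at 1 in replicate 2.

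Most intergenic peaks of replicate 1 had no partner. Its list held 8932 intergenic peaks, 13.6% of 65582, and 18.1% of them (interval 17.4% to 18.96%) overlapped a peak of replicate 2, against 35.0% of all its peaks. Replicate 2 had 2202 intergenic peaks, 8.32% of 26482, and 75.7% of them (interval 73.8% to 77.4%) had a partner, against 94.0% of all its peaks. In both lists intergenic peaks were thus shared less often than peaks at large. Intergenic peaks with a partner had median folds of 8.94 in replicate 1 and 6.45 in replicate 2, against 5.11 and 4.55 for those without.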

How the data were processed

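Per the labels, DNA from C2C12 cells was sequenced after ChIP with a Deaf1 antibody (2 replicates) and from input (2 samples, not used here). The submitters' processing notes name BWA, MACS2 and the mm10 build. Their versions and settings, and the caller's control, are not stated in the labels. Each replicate has its own peak list, deposited by the authors. Each peak's fold enrichment (a ratio) and its p-value and q-value, as −log10, are as the authors deposited them. The deposited score was not used. Peaks numbered 65606 and 26503, of which 65582 and 26482 lay on the chromosomes used.

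Pileup and local background were obtained by finding the whole-number pileup that gives both deposited values in a Poisson distribution, adding 1 to each. The largest misfit in −log10 p was 4.07e-05. On simulated data 100% of 1977 pileups were recovered, and 100% of 3000 positions were rightly called intergenic or not. The other kinds of position were not checked in this way. Read depth is unknown, so pileup is the only measure of counting precision. Gene spans were RefSeq GRCm38.p6 (21631 coding genes). Intervals are exact Clopper-Pearson at 95%. Python 3.11.15, pandas 2.3.3, numpy 2.4.6 and scipy 1.17.1 were used.

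The regions and gene lists were chosen with earlier results of these data known. Regions were named by fixed rules: the 12 highest by rank, the 5 farthest, the 5 largest clusters, up to 4 genes a list, 3 on each side of the 5 kb limit, and the extremes of ratio, background and width. All 315 listed genes matched the table, and some regions that these rules pick are not reported here. Planned motif counts at summits, which need genome sequence, were not run. Alternatives varied overlap, threshold, distances, replicates, summits, background and chromosome 15.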

Additional observations from a re-analysis of the deposited data

Results flagged for a closer look

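Peaks of 1 replicate alone stood outside the comparisons above. In replicate 1, 7311 intergenic peaks had no partner in replicate 2, with a median fold of 5.11 and a highest of 16.3, and 59 of them had a fold of 10 or more. In replicate 2, 536 intergenic peaks had no partner in replicate 1, with a median fold of 4.55 and a highest of 7.21. They were picked out as signal that the shared regions leave out. No peak list of a control sample was used here, so their level was not set against one.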

How the results depend on the processing

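Under 13 alternatives 113 of 146 values stayed within their interval, their spread or 1.5 times the count. These values are counts, shares and medians of the intergenic regions. The comparisons with other positions or between gene kinds were not run under the alternatives. The number of intergenic regions was 519 past 50 kb from coding genes, and 2202 to 8932 when 1 replicate was left out. Their share was 6.16% with a fold of 5 or more, 6.46% with a −log10 q of 5 or more, 8.74% past 2 kb, 5.62% past 10 kb, 2.27% past 50 kb, 9.47% with no minimum distance from noncoding ends, 5.46% outside noncoding spans, 7.74% with summits within 100 bp, 7.96% without raised background, and 8.32% to 13.6% with 1 replicate left out. The median fold of replicate 1 was 5.18 over its own list alone, and its raised background 19.2%. The median distance was 17.6, 35.9 and 91.2 kb past 2, 10 and 50 kb, and 27.95 to 28.6 kb with 1 replicate left out. With a −log10 q of 5 or more, 92.6% had summits within 100 bp. Inside noncoding genes lay 25.05% past 50 kb and 34.6% with no minimum distance from noncoding ends. The share in clusters was 21.8% with a fold of 5 or more, 22.8% with a −log10 q of 5 or more, 19.1% past 50 kb, 27.98% with no noncoding minimum, 22.0% with close summits, 19.1% without raised background, and 26.4% to 52.5% with 1 replicate left out. Nearest coding genes numbered 387 past 50 kb and 1487 to 3677 with 1 replicate left out. Listed genes, an alternative chosen after seeing the data, numbered 23 and 80 to 132 in the same settings. Each alternative admits its own set of regions, and the causes of these shifts were not tested. Of the 12 highest regions 9 stayed past 10 kb, 7 past 50 kb, 7 outside noncoding spans, 9 with close summits, 4 without raised background and 11 without chromosome 15. No paired analysis was possible because there was a single group with peak lists. Unknown read depth, gene spans without strand and the lack of a control list here limit all values.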
